A study of Homo sapiens with 6 samples.

Results

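The dual-specificity MAPK phosphatases (DUSP genes) were taken as 10 genes: DUSP5, DUSP6 and DUSP7, whose enzymes act mainly on ERK, and DUSP1, DUSP2, DUSP4, DUSP8, DUSP10, DUSP14 and DUSP16. Every probe set that the annotation of the HG-U133 Plus array pairs with one of these symbols alone was used. This gave 22 of the 54613 probe sets tested, and the 10 genes stand among 19775. The arrays came from SUM149 cells, a human line of triple-negative inflammatory breast cancer, in 2 groups of 3 arrays. The siTIG1 cells had received an ON-TARGET Plus pool of siRNAs against TIG1 (the retinoid-induced gene RARRES1), and the siControl cells a siGENOME non-targeting pool, each at 200 nmol/L with oligofectamine. The groups therefore differed in the siRNA product line as well as in the target, and the 2 cannot be told apart. Both were grown with serum, insulin and hydrocortisone, a glucocorticoid. All cells were of 1 line, and nothing states that the replicates were grown as separate cultures. The p-values therefore cover array-to-array spread alone, and that spread may be technical.

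MAP kinases are switched on when a pair of residues, a threonine and a tyrosine, in their activation loop are phosphorylated, and the DUSP enzymes switch them off by removing both phosphates. ERK responds mainly to growth factors, whereas JNK and p38 respond mainly to stress and cytokines. Several DUSP genes are themselves induced by the kinases they inactivate, which makes a negative feedback loop, and their transcripts are short-lived. DUSP6 is widely used as a readout of ERK activity in tumour cells. In epithelial cells DUSP1 is an immediate-early gene that is also induced by glucocorticoids.

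Promoter sequence is shown for 4 members whose behaviour on the arrays differed, DUSP6, DUSP7 and DUSP8, with lower mean signal in siTIG1 cells, and DUSP1, with higher mean signal. Each sequence is the 250 bases upstream of the gene's start in the RefSeq table of GRCh38.p14, where 8 of the 10 members were matched, and all 4 lie on the minus strand. Capitals mark the cAMP response element TGACGTCA and its shorter core TGACG, on either strand. Each full element contains the core on both strands.
DUSP6, chr12:89352502-89352751: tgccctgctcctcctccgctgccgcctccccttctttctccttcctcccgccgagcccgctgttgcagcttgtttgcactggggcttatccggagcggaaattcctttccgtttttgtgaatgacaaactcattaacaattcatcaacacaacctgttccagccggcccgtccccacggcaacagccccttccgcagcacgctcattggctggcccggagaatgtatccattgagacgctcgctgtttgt
DUSP7, chr3:52056572-52056821: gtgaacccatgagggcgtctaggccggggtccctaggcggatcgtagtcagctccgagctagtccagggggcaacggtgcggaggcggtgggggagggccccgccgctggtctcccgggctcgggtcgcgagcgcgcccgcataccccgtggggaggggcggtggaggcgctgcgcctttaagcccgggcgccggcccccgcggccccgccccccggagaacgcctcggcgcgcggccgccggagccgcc
DUSP1, chr5:172771196-172771445: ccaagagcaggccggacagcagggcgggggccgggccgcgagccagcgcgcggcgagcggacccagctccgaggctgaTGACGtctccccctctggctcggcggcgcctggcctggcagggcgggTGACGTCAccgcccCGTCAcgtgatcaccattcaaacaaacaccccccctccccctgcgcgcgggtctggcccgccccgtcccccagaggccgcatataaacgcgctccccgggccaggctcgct
DUSP8, chr11:1572272-1572521: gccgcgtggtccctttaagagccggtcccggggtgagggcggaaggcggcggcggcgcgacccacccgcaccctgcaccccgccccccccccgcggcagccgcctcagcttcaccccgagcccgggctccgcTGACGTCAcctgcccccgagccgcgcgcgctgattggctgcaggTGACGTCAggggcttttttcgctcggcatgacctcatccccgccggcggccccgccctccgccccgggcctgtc

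The full element was found at 1 place in the DUSP1 sequence and at 2 places in that of DUSP8, and 1.65% of 35116 promoter windows of this length hold it. These were the only ones of the 8 matched members with it, and both are shown. The matched members not shown, DUSP2, DUSP10, DUSP14 and DUSP16, held neither the full element nor the core. The DUSP1 match lay 125 to 118 bases before the gene's start. The core was present in 21.2% of the windows. CCGGAAG, a core bound by ETS factors (8.52% of windows), TGANTCA, bound by AP-1 (6.57%), and the CArG box of serum response factor (1.16%) were searched on both strands and matched in none of the 4 sequences. A match is a stretch of letters, not a measured binding site, and no match says only that these letters are not in this window. DUSP1 and DUSP8, which share the element, had differences of opposite sign between the groups, as described below. Neither difference passed the test with all arrays (limma adjusted p = 0.41 for DUSP1 and 0.18 for DUSP8). The other probe sets of these genes differed by only -0.03 and 0.05 (DUSP1) and 0.03 (DUSP8).

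The array of siControl replicate 3 stood apart. It correlated with siControl replicates 1 and 2 at 0.985 each across all probe sets, whereas those 2 correlated with each other at 0.998 and with the siTIG1 arrays at 0.992 to 0.993. The log2 gap separating the ACTB control probe sets at both transcript ends (3' minus 5'), which widens with RNA degradation, was widest there at 3.21, with 2.14 to 2.34 on the siTIG1 arrays and 2.62 and 2.73 on the other control arrays. For GAPDH the gap was also widest there at 0.573, with 0.459 to 0.471 on the siTIG1 arrays and 0.462 and 0.476 on the other control arrays. The part of RNA quality in the results below was not tested, and the results are given with and without this array. The first TIG1 probe set read 10.72, 10.03 and 9.96 on the siTIG1 arrays, against 11.04, 10.92 and 12.58 on the control arrays. siTIG1 replicate 1 lay only 0.27 and 0.17 below the mean of siControl replicates 1 and 2 on the first and second probe sets and 0.06 above it on the third, where the groups overlapped. The differences between group means were -1.28, -1.24 and -0.83 on the log2 scale, and none passed the test (limma adjusted p = 0.197, 0.227 and 0.273). Exact 2-sided permutation tests gave p = 0.1, 0.1 and 0.3, where 0.1 is the smallest possible with 3 arrays against 3. Without siControl replicate 3 the TIG1 differences were -0.75, -0.68 and -0.46 (limma adjusted p = 0.0244, 0.0428 and 0.160). Markers of the line and of other cells were read as lists, of which 3 basal genes and 1 leukocyte gene were not analysed here. Of 6 epithelial genes, KRT19 rose by 1.00 (limma adjusted p = 0.0164) and 5 did not pass, EPCAM among them at -0.05 (limma adjusted p = 0.77), and of 4 basal genes, CDH3 rose by 0.49 (limma adjusted p = 0.0073) and 3 did not pass. Without siControl replicate 3, 4 epithelial genes rose, and 2 basal genes rose and 2 fell, KRT19 and CDH3 standing at 0.84 and 0.49. The basal genes that fell there, EGFR and KRT14, differed by -1.43 and 0.03 with all arrays (limma adjusted p = 0.14 and 0.96). Their differences were -0.86 and -0.32 once siControl replicate 3 was dropped (limma adjusted p = 7.07e-06 and 0.0031). None of 5 luminal hormone receptor, 4 leukocyte, 5 fibroblast and 5 endothelial genes passed by limma with all arrays (1, 1, 0 and 0 at an unadjusted p under 0.05). Without that array, GATA3 (0.67, limma adjusted p = 0.000217) of the luminal list and CD14 (0.80, limma adjusted p = 1.60e-05) and LCP1 (0.22, limma adjusted p = 0.0278) of the leukocyte list rose. The summed log2 levels of the leukocyte list were 31.83 to 31.87 on siTIG1 arrays and 30.79 to 32.38 on control arrays. Those of the fibroblast list were 42.52 to 42.89 on siTIG1 arrays and 42.14 to 43.31 on control arrays, and those of the endothelial list 39.29 to 39.48 on siTIG1 arrays and 38.95 to 39.32 on control arrays. With no detection call in the deposited values, no marker can be called absent, and the part of these genes in the results was not tested.

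With all arrays, DUSP7 and DUSP14 fell in siTIG1 cells, DUSP10 rose, and the other 7 members did not pass the test. Each value is that of bulk RNA, in which fewer cells with a transcript and less of it per cell cannot be told apart. Each gene was represented by its brightest probe set, x_at sets being used only where no other existed, which for DUSP8 set aside the brighter of 2, and the test was limma's with Benjamini-Hochberg adjustment over all genes and a threshold of 0.05. The 2 members that fell are to be read against 4.14% of all genes that did so, and the 1 that rose against 3.16%, 7.29% in either direction. Without siControl replicate 3, 5 members fell (DUSP4, DUSP6, DUSP7, DUSP8 and DUSP14) and 3 rose (DUSP1, DUSP10 and DUSP16), against 14.8% and 12.2% of all genes, 27.1% in either direction. DUSP2 and DUSP5 did not pass in either comparison. The 10 differences ran from -1.92 to 1.04 with all arrays, and their median was -0.37, beside 0.02 over all genes. They ran from -1.15 to 1.48 without siControl replicate 3, and their median was then -0.17, again beside 0.02 over all genes.

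**Figure D1:**
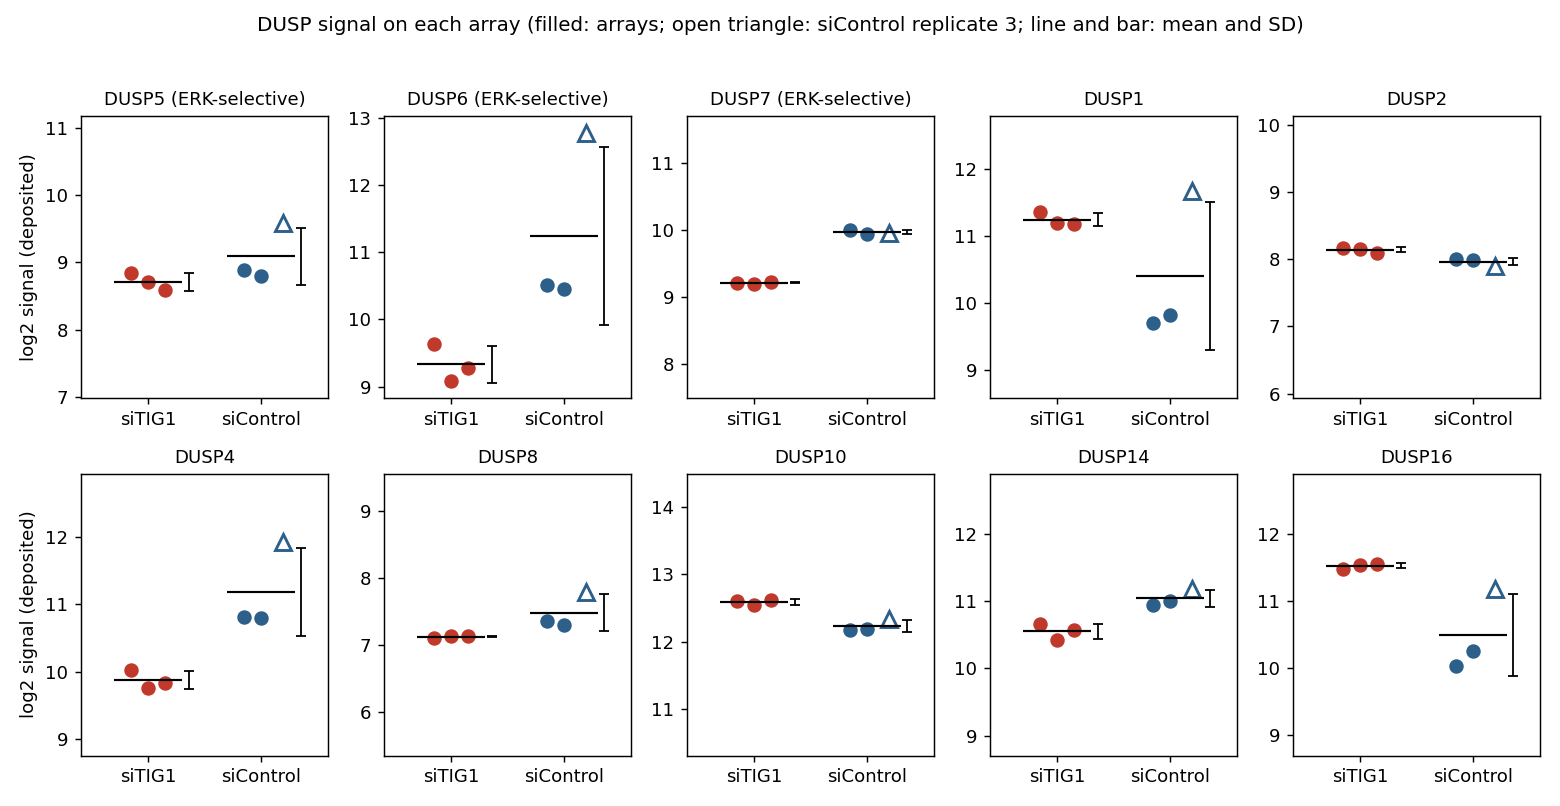
Deposited log2 signal of the 10 DUSP genes on each array, siTIG1 at the left and siControl at the right of each panel, with a horizontal line at the mean and a bar for the SD of 3 arrays. Each panel spans the same number of log2 units. The open triangle, siControl replicate 3, lies far above the other controls for DUSP6 (12.77), DUSP1 (11.67), DUSP4 (11.94) and DUSP16 (11.18) and among them for DUSP7.

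Of the ERK-selective members, DUSP7 gave the clearest separation of the groups. DUSP7 encodes a cytoplasmic phosphatase closely related to DUSP6. Its log2 signal was 9.21, 9.20 and 9.22 on the siTIG1 arrays, against 9.99, 9.94 and 9.96 on the control arrays. The 3 arrays of each group lay close together, the groups did not overlap, and siControl replicate 3 lay between the other controls. DUSP7 fell by 0.75 ± 0.05 (SE) on the log2 scale, 1.68-fold (limma adjusted p = 0.0020). It passed whichever array was left out, with the highest limma adjusted p at 0.0261. The DUSP7 difference without siControl replicate 3 was -0.75 ± 0.05 (SE, limma adjusted p = 1.11e-05). The dimmer of its 2 probe sets, at 7.36 to 7.48 on siTIG1 arrays and 7.44 to 7.55 on control arrays, differed by -0.05 and did not pass (limma adjusted p = 0.71 over all probe sets).

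DUSP6, the cytoplasmic ERK phosphatase and feedback gene, had the largest difference of the members in size, but its control arrays disagreed. It read 9.63, 9.08 and 9.28 on the siTIG1 arrays, against 10.51, 10.45 and 12.77 on the control arrays. Every siTIG1 array was lower than every control array, and siControl replicate 3 was 2.29 above the mean of the other controls, a 4.90-fold gap. The log2 difference was -1.92 ± 0.62 (SE) and did not pass (limma adjusted p = 0.14). Without that array DUSP6 fell by 1.15 ± 0.13 (SE), 2.22-fold (limma adjusted p = 0.000182). The other 2 DUSP6 probe sets differed by -1.85 and -1.13 with all arrays and by -1.01 and -0.53 without that array, where all 3 passed (limma adjusted p = 0.000334, 0.000432 and 0.00151 over all probe sets). Among the siTIG1 arrays, replicate 1 had the highest DUSP6 signal, as it did for TIG1 on each of its probe sets (10.72 against 10.03 and 9.96 on the first of them). This order was not particular to DUSP6. Replicate 1 was also the highest siTIG1 array for DUSP4, DUSP5 and DUSP14, and for DUSP1 and DUSP2, whose differences were positive. It was not the highest for DUSP7, DUSP8, DUSP10 and DUSP16.

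DUSP5, the nuclear ERK phosphatase, showed the smallest difference of the 3. It read 8.84, 8.71 and 8.58 on the siTIG1 arrays, against 8.89, 8.80 and 9.58 on the control arrays. The groups overlapped, since siTIG1 replicate 1 lay above siControl replicate 2, and siControl replicate 3 was again the highest. The log2 difference was -0.38 ± 0.21 (SE, limma adjusted p = 0.36) with all arrays. It was -0.14 ± 0.08 (SE, limma adjusted p = 0.22) once siControl replicate 3 was left out. DUSP5 had a single probe set.

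Among the phosphatases that are not restricted to ERK, DUSP4 resembled DUSP6 in the order of its arrays. DUSP4 encodes a nuclear phosphatase of ERK, JNK and p38 that is induced by ERK signalling. It read 10.03, 9.76 and 9.83 on the siTIG1 arrays, against 10.81, 10.80 and 11.94 on the control arrays. All siTIG1 arrays were lower than all controls, and siControl replicate 3 was 1.13 above the mean of the other controls. The log2 difference was -1.31 ± 0.31 (SE, limma adjusted p = 0.060) with all arrays. Without that array DUSP4 fell by 0.93 ± 0.08 (SE), 1.90-fold (limma adjusted p = 3.31e-05). All 3 DUSP4 probe sets had negative differences, from -1.83 to -0.93. The one with the largest difference passed with all arrays at -1.83 (limma adjusted p = 0.0447 over all probe sets), a call lost when any other array was left out (limma adjusted p = 0.0679 to 0.188). All 3 passed without siControl replicate 3.

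DUSP1, the immediate-early phosphatase of p38, JNK and ERK, had the opposite sign. It read 11.35, 11.19 and 11.17 on the siTIG1 arrays, against 9.70, 9.83 and 11.67 on the control arrays. The siTIG1 arrays lay above siControl replicates 1 and 2 and below siControl replicate 3, so the groups overlapped. The log2 difference was 0.84 ± 0.51 (SE, limma adjusted p = 0.41). With siControl replicate 3 left out, DUSP1 rose by 1.48 ± 0.07 (SE), 2.78-fold, the largest difference among the members in that comparison (limma adjusted p = 2.40e-06). The other 2 DUSP1 probe sets, at 7.19 to 7.53 and 8.71 to 8.82 over all arrays, differed by -0.03 and 0.05 and did not pass with or without that array, so the DUSP1 value rests on 1 of 3 probe sets.

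DUSP16 and DUSP10, whose enzymes act mainly on JNK and p38, had higher mean signals in siTIG1 cells. DUSP16 read 11.48, 11.54 and 11.56 on the siTIG1 arrays, against 10.04, 10.25 and 11.18 on the control arrays. The groups did not overlap, but siControl replicate 3 lay nearer to the siTIG1 arrays than to the other controls. The log2 difference was 1.04 ± 0.28 (SE, limma adjusted p = 0.091) with all arrays. Leaving siControl replicate 3 out, DUSP16 rose by 1.38 ± 0.07 (SE), 2.61-fold (limma adjusted p = 2.76e-06). All 4 DUSP16 probe sets had positive differences, from 0.12 to 1.36, and the largest passed with all arrays (limma adjusted p = 0.0282 over all probe sets). This call too was lost when any array other than siControl replicate 3 was left out (limma adjusted p = 0.0679 to 0.134).

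DUSP10 read 12.60, 12.55 and 12.63 on the siTIG1 arrays, against 12.18, 12.19 and 12.34 on the control arrays. The groups did not overlap and the siTIG1 arrays were the higher ones. DUSP10 rose by 0.35 ± 0.06 (SE), 1.28-fold (limma adjusted p = 0.0268). The call was lost when any array other than siControl replicate 3 was left out (limma adjusted p = 0.0882 to 0.131). DUSP10 rose by 0.40 ± 0.05 (SE, limma adjusted p = 0.000407) without siControl replicate 3. The other DUSP10 probe set had a difference of 0.41 that did not pass with all arrays (limma adjusted p = 0.25 over all probe sets) and 0.61 that did without that array (limma adjusted p = 0.000233).

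DUSP14 encodes a small phosphatase that lacks the kinase-docking domain of the classical family members. It read 10.65, 10.42 and 10.57 on the siTIG1 arrays, against 10.94, 11.01 and 11.18 on the control arrays. The groups did not overlap, and DUSP14 fell by 0.49 ± 0.09 (SE), 1.41-fold (limma adjusted p = 0.0284). That call was also lost without any array other than siControl replicate 3 (limma adjusted p = 0.0589 to 0.121), while without that array DUSP14 fell by 0.42 ± 0.07 (SE, limma adjusted p = 0.0019). DUSP14 had a single probe set.

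Neither DUSP8 nor DUSP2 passed the test with all arrays. DUSP8, a phosphatase of JNK and p38, read 7.11, 7.13 and 7.13 on the siTIG1 arrays, against 7.35, 7.30 and 7.79 on the control arrays. The groups did not overlap, and the log2 difference of -0.36 ± 0.13 (SE) did not pass (limma adjusted p = 0.18). DUSP8 fell by 0.20 ± 0.05 (SE, limma adjusted p = 0.0152) in the comparison without siControl replicate 3. Its other probe set, at 9.56 to 9.70 on siTIG1 arrays and 9.53 to 9.71 on control arrays, differed by 0.03 with all arrays and -0.02 without that array and did not pass. DUSP2, a nuclear phosphatase best known from activated leukocytes, read 8.167, 8.156 and 8.098 on the siTIG1 arrays, against 7.997, 7.990 and 7.902 on the control arrays. The groups did not overlap, but the log2 difference of 0.18 ± 0.05 (SE) missed the threshold with all arrays (limma adjusted p = 0.11) and also when siControl replicate 3 was dropped (0.15 ± 0.05 SE, limma adjusted p = 0.063). Neither signal is shown to lie above background.

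**Figure D2:**
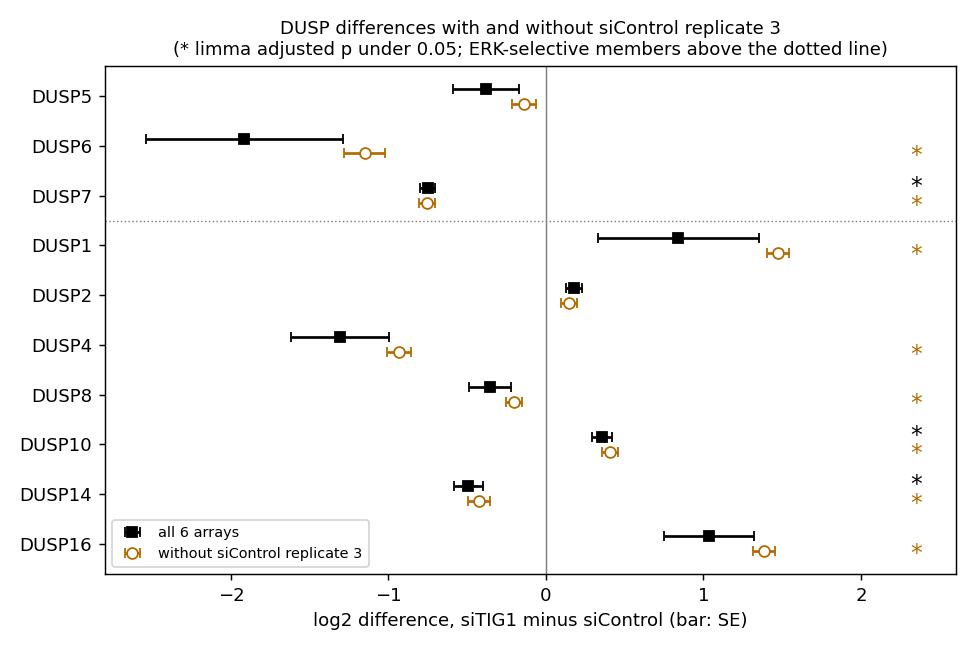
Log2 difference, siTIG1 minus siControl, of each DUSP gene with its SE, from all 6 arrays (black squares) and without siControl replicate 3 (open circles); stars mark a limma adjusted p under 0.05. The squares for DUSP6, DUSP1, DUSP4 and DUSP16 carry wide bars that narrow without that array, whereas DUSP7 keeps its value of -0.75.

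The ERK-selective members were set beside the others as groups. All 3 of DUSP5, DUSP6 and DUSP7 had negative differences, with a median of -0.75, of which 1 passed with all arrays. Of the 7 others, 3 had negative and 4 positive differences, with a median of 0.18, and 1 fell, 1 rose and 5 did not pass. The ERK-selective median was again -0.75 without siControl replicate 3, with 2 of 3 past the threshold as lower. The others then had a median of 0.15, with 3 lower, 3 higher and 1 not past the threshold. The difference between the 2 medians was -0.93 with all arrays and -0.90 without siControl replicate 3. It shrank to -0.58 when all probe sets of a gene were averaged, since the dim DUSP7 probe set then counted. These are descriptions of 3 and 7 genes and were not tested. The ranges overlapped, since the DUSP4 difference was more negative than those of DUSP7 and DUSP5.

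Counting complete separation, 8 of 10 members had siTIG1 and siControl arrays that did not overlap, DUSP1 and DUSP5 being the exceptions, whereas 31.8% of all genes did so. Of these 8, 5 were lower in siTIG1 cells (15.3% of all genes) and 3 were higher (16.6%). The count was 9 of 10 without siControl replicate 3, DUSP5 being the exception, against 52.5% of all genes.

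At the level of probe sets, 5 of 22 passed with all arrays, 3 as lower and 2 as higher, where 5.01% of all probe sets passed (2.87% lower and 2.14% higher). In the 5 arrays without siControl replicate 3, 15 of 22 passed, 9 as lower and 6 as higher, against 18.9% of all probe sets (11% lower and 7.87% higher). Probe sets of 1 gene share their target, so these counts are not independent. Of the 7 genes with more than 1 probe set, all had the same sign on every one except DUSP1 and DUSP8, where 1 probe set had a small difference of opposite sign.

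**Figure D3:**
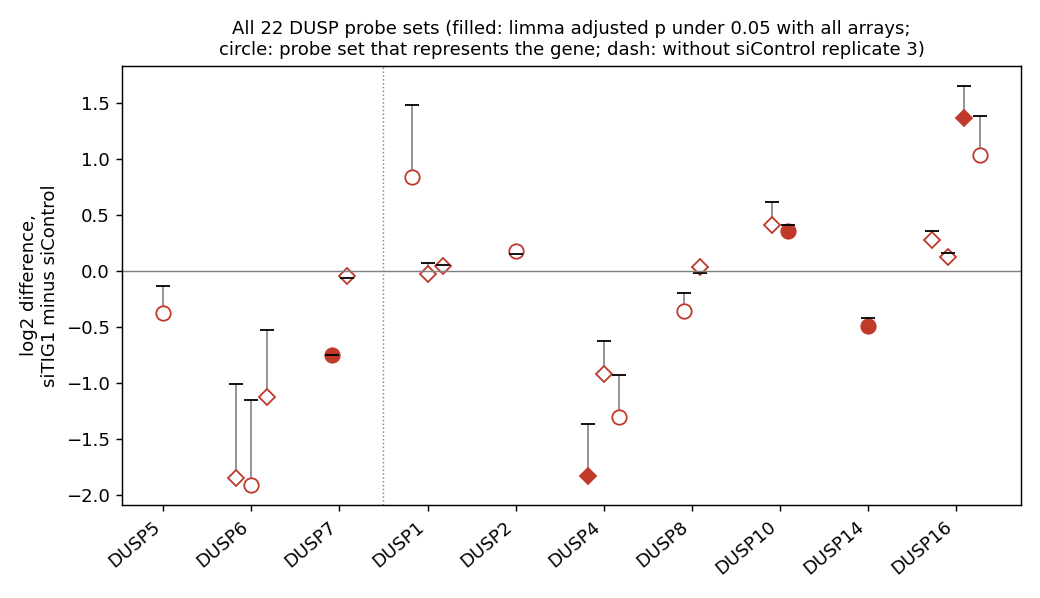
Log2 difference, siTIG1 minus siControl, of all 22 DUSP probe sets with all arrays (circles for the probe set that represents the gene, diamonds for the others, filled where limma's adjusted p was under 0.05) joined to the value without siControl replicate 3 (dash). The 3 DUSP6 and 3 DUSP4 probe sets lie below 0 throughout, while DUSP1, DUSP7 and DUSP8 each have probe sets near 0.

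The position of siControl replicate 3 differed between members. Against the mean of siControl replicates 1 and 2 it was at least 2-fold higher for 4 of 10 members, DUSP6 (2.29 on the log2 scale), DUSP1 (1.90), DUSP4 (1.13) and DUSP16 (1.04), where 1.55% of all genes were. It was 0.73 above for DUSP5 and 0.47 above for DUSP8, and nearest to the other controls for DUSP7 (-0.01). These are values of a single array, with no test. For DUSP6, DUSP4, DUSP5, DUSP8 and DUSP14 that array lay on the opposite side of the other controls from the siTIG1 mean, so that including it enlarged the negative difference. For DUSP1, DUSP16 and DUSP10 it lay on the same side, so that including it reduced the positive difference. DUSP2 stood at -0.09 there, which enlarged its small positive difference. The 3 siTIG1 arrays lay within 0.55 of each other for every member.

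**Figure D4:**
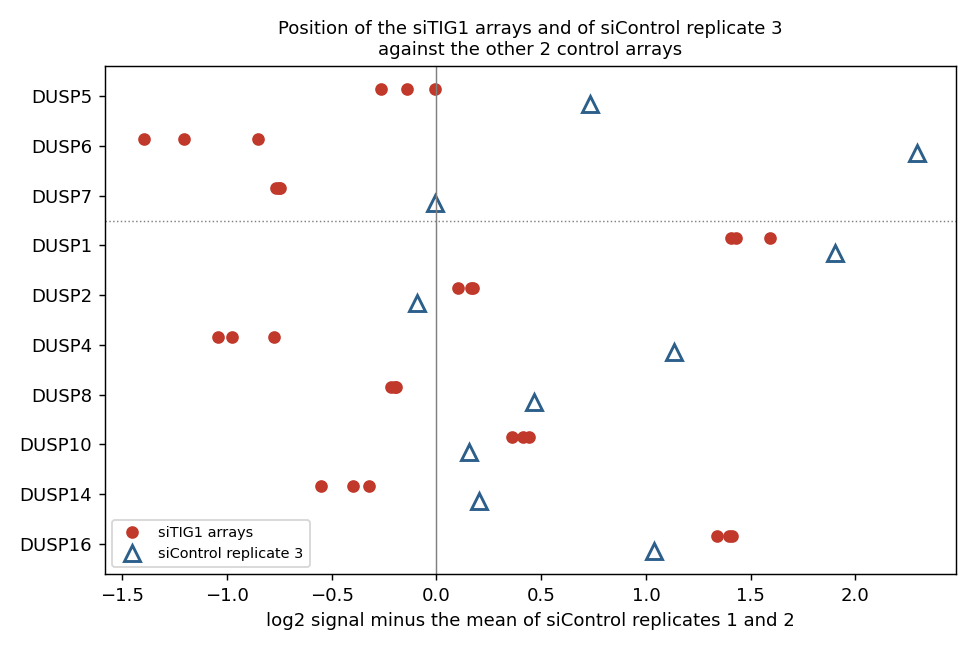
Log2 signal of each siTIG1 array (circles) and of siControl replicate 3 (triangle) minus the mean of siControl replicates 1 and 2, for the 10 DUSP genes. The triangle lies right of 0 for 8 of 10 genes, at 2.29 for DUSP6, while the siTIG1 circles lie left of 0 for DUSP6, DUSP7, DUSP4, DUSP8, DUSP14 and DUSP5 and right of it for DUSP1, DUSP2, DUSP10 and DUSP16.

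The genes with the array pattern most like that of DUSP6, by Pearson's r over the 6 arrays, were TMX3 (r = 0.9992), TUBE1 (r = 0.9989), ARHGEF4 (r = 0.9988) and VPS37C (r = 0.9984). In all, 91 of 19765 genes exceeded an r of 0.99, and all these values share the high array of siControl replicate 3. Without that array r was 0.994 to 0.997 for these 4. TUBE1, which encodes epsilon-tubulin, read 8.97, 8.74 and 8.87 on the siTIG1 arrays, against 9.50, 9.48 and 10.82 on the control arrays, and its difference of -1.07 ± 0.36 (SE) did not pass (limma adjusted p = 0.15). TUBE1 fell by 0.63 ± 0.07 when siControl replicate 3 was left out (SE, limma adjusted p = 0.000180).

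The kinases on which these phosphatases act, and the kinases upstream of them, were taken from lists of pathway genes. Each listed gene is given by 1 probe set, chosen as for the members, and any others are not shown. Of the genes named below, MAPK8, SSH2 and STYXL1 had 5 probe sets each, KSR1 had 4 and MAP2K6 had 2. The counts of these lists are to be read against the shares of all genes that passed, 3.16% higher and 4.14% lower with all arrays, and 12.2% higher and 14.8% lower without siControl replicate 3. Of 16 measured genes of the RAS, RAF, MEK and ERK cascade, 1 rose, none fell and 15 did not pass, with a median difference of -0.12. The one that rose was KSR1, a scaffold that brings RAF, MEK and ERK together, at 10.79, 10.54 and 10.55 on the siTIG1 arrays, against 9.45, 9.39 and 10.10 on the control arrays (0.98 ± 0.20 SE, limma adjusted p = 0.0375, or 1.21 without siControl replicate 3, limma adjusted p = 8.94e-06). MAPK3, which encodes an ERK, differed by 0.03 ± 0.05 (SE, limma adjusted p = 0.77), or by 0.01 without siControl replicate 3 (limma adjusted p = 0.87). In the comparison without siControl replicate 3, 4 genes of this cascade rose and 3 fell, with a median of -0.04. Beside KSR1, the genes that rose were SOS2 (0.95, limma adjusted p = 3.56e-06), MKNK2 (0.34, limma adjusted p = 0.0015) and SOS1 (0.32, limma adjusted p = 0.0071). The falls were MAP2K1, which encodes a MEK (-0.25, limma adjusted p = 0.0125), RPS6KA1 (-0.24, limma adjusted p = 0.0141) and HRAS (-0.23, limma adjusted p = 0.0091). The list has 5 further genes that were not analysed here. The lists below likewise have 3 (JNK, p38 and ERK5 cascades), 2 (further dual-specificity phosphatases) and 1 (regulators of DUSP transcripts).

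Of 21 measured genes of the JNK, p38 and ERK5 cascades, 1 rose, 1 fell and 19 did not pass, with a median of -0.01, and without siControl replicate 3, 2 rose and 4 fell, again with a median of -0.01. MAP2K6, a kinase that activates p38, read 10.80, 10.82 and 10.84 on the siTIG1 arrays, against 9.49, 9.45 and 8.03 on the control arrays. The groups did not overlap, siControl replicate 3 was the lowest, and MAP2K6 rose by 1.83 ± 0.39 (SE), 3.56-fold (limma adjusted p = 0.0425), or by 1.35 without that array (limma adjusted p = 7.06e-07). MAPK8, a JNK gene, read 9.71, 9.43 and 9.49 on the siTIG1 arrays, against 10.21, 10.25 and 10.43 on the control arrays. It fell by 0.75 ± 0.10 (SE), 1.68-fold (limma adjusted p = 0.0111), or by 0.68 without siControl replicate 3 (limma adjusted p = 0.000247). The other JNK genes, MAPK9 and MAPK10, differed by -0.19 and 0.17 with all arrays (limma adjusted p = 0.32 and 0.29). Neither passed without siControl replicate 3. The calls of KSR1 and MAP2K6 were lost when any array other than siControl replicate 3 was left out (limma adjusted p = 0.106 to 0.144 and 0.0658 to 0.168), and that of MAPK8 for at least 1 such array (highest limma adjusted p = 0.0733).

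Of 17 further measured dual-specificity phosphatase genes, 2 rose, 1 fell and 14 did not pass, with a median of -0.01, and without siControl replicate 3, 3 rose and 3 fell, with a median of 0.06. SSH2, which dephosphorylates the actin regulator cofilin, rose by 0.52 ± 0.05 (SE, limma adjusted p = 0.0047) and passed whichever array was left out (highest limma adjusted p = 0.0444). STYXL1, a catalytically inactive relative, rose by 0.49 ± 0.09 (SE, limma adjusted p = 0.0301), and DUSP12, an atypical member, fell by 0.47 ± 0.07 (SE, limma adjusted p = 0.0161). The STYXL1 call was lost when any array other than siControl replicate 3 was left out (limma adjusted p = 0.0924 to 0.141), and the DUSP12 call for at least 1 such array (highest limma adjusted p = 0.0921). Without siControl replicate 3 the differences of SSH2, STYXL1 and DUSP12 were 0.50, 0.58 and -0.47, and all 3 passed. DUSP9, the remaining ERK-selective cytoplasmic phosphatase, read 8.37, 8.45 and 8.29 on the siTIG1 arrays, against 8.82, 8.58 and 8.65 on the control arrays. Its groups did not overlap, and its difference of -0.31 ± 0.08 (SE) did not pass with all arrays (limma adjusted p = 0.078) but did without siControl replicate 3 (-0.33, limma adjusted p = 0.0120).

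None of 11 measured genes of other phosphatases that act on MAP kinases passed by limma with all arrays. The largest differences there were those of PPP2R1B, a scaffold subunit of protein phosphatase 2A (0.45 ± 0.26 SE, limma adjusted p = 0.38), and PPM1A (-0.19 ± 0.12 SE, limma adjusted p = 0.40). None of 13 measured regulators of DUSP transcripts passed either, with ETS1 (-0.27 ± 0.08 SE, limma adjusted p = 0.099) and PUM2 (-0.22 ± 0.09 SE, limma adjusted p = 0.22) as the largest. Without siControl replicate 3 these 4 differences were 0.13, -0.06, -0.25 and -0.13, of which that of ETS1 passed (limma adjusted p = 0.0341). At an unadjusted limma p under 0.05 the counts were 0 of 11 and 2 of 13. Of the 11, 1 fell without siControl replicate 3, and of the 13, 6 rose and 1 fell, where 12.2% of all genes rose and 14.8% fell. The 6 that rose were FOXO3 (0.43), FOXO1 (0.42), ATF2 (0.41), ETS2 (0.36), ZFP36 (0.35) and ZFP36L1 (0.25). Their limma adjusted p ran from 0.000217 for FOXO3 to 0.0083 for ATF2, and ETS1 was the 1 that fell. The medians of the 2 lists were -0.01 and 0.04 with all arrays, and 0.04 and 0.08 without that array.

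**Figure D5:**
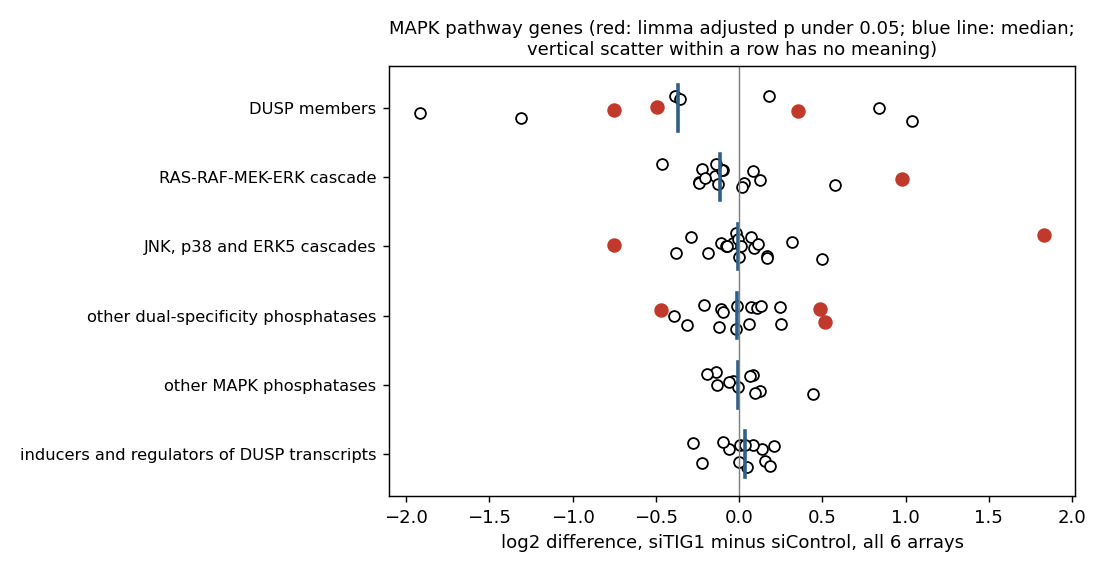
Log2 difference, siTIG1 minus siControl with all 6 arrays, of the 10 DUSP genes and of 5 lists of related genes, 1 circle per gene, red where limma's adjusted p was under 0.05 and a blue line at each median. The DUSP genes run from -1.92 to 1.04 around a median of -0.37, which is -0.17 without siControl replicate 3, and the medians of the lists lie between -0.12 and 0.04.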

How the data were processed

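The authors deposited 1 log2 value per probe set for each of 6 Affymetrix HG-U133 Plus arrays. The arrays carried biotinylated cRNA, per the labels' protocols. The submitters' processing notes name MAS5 and RMA; which one was used is not stated there. The log base was taken as 2 from the range, 4.28 to 15.59. Sorted values differed between arrays by at most 0.093, so the deposited values were used without further normalization, which hides any shift of most genes together. The table carries no detection call.

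Of 54675 probe sets, 62 control probe sets were left out. Symbols came from the platform annotation, updated through the gene number (RefSeq, GRCh38.p14, holding 19735 of 19775 genes). Each gene was represented by its probe set with the highest mean, those ending in x_at only where no other existed. The comparison used limma 3.58.1 under R 4.3.3 (linear model with moderated variance, 2-sided, and no block), adjusted over all 19775 genes or all 54613 probe sets. The number of arrays limits precision. The fit was tested on simulated data.

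Members and lists were chosen with earlier results of these data known. All members, RARRES1, up to 5 genes per list past the threshold (or the 2 largest differences) and the 4 genes most like the leading member were named. DUSP9, MAP2K1, MAPK3, MAPK9, MAPK10, EPCAM, EGFR, KRT14, GATA3, CD14 and LCP1 were named after their values were seen. So were SOS1, SOS2, MKNK2, RPS6KA1, HRAS, FOXO1, FOXO3, ATF2, ETS2, ZFP36 and ZFP36L1. The labels state no pairing of the arrays. Alternatives were quantile normalization, a trended robust variance, array weights, a filter on the lowest 25% by mean, averaging all probe sets per gene, a replicate block and leaving out each array.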

Additional observations from a re-analysis of the deposited data

How the results depend on the processing

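No DUSP gene changed sign under any alternative tried: of 119 values, 95 kept their side of the threshold, 13 lost the call (all for DUSP10 and DUSP14) and 11 gained it. DUSP7 passed in every setting. With 1 array left out, 1 to 5 members were lower and 0 to 3 higher (probe sets: 1 to 9 and 0 to 6; all genes: 116 to 2936 and 101 to 2421), and the highest counts came without siControl replicate 3. Array weights, which gave that array a weight of 0.103 against 1.04 to 2.18 for the others, made 5 members lower and 4 higher, 8 and 6 probe sets, and 2717 and 2392 genes. With the replicate block 1 member was lower and 0 higher, 1 and 0 probe sets, and 137 and 108 genes. Same-numbered arrays did not deviate together from their group means (r = -0.08, 0.02 and -0.04). The siControl mean includes the outlying replicate 3, so these r values cannot exclude a pairing. Averaging a gene's probe sets left 0 members higher, and a trended robust variance 1 probe set higher. The median of ERK-selective minus that of other members was -0.93, and it was -0.88 after quantile normalization, -1.02 without the dimmest genes, which leaves out DUSP8 among the members, -0.58 with averaged probe sets, and -0.95 to -0.90 with 1 array left out. The causes were not tested. The 3 TIG1 differences ranged from -1.58 to -0.75, -1.52 to -0.68 and -1.09 to -0.46 with 1 array left out, the smallest being without siControl replicate 3, when the first 2 passed. Signal over background is unknown for all members.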
